A study of Mus musculus with 4 samples.

Results

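The family of miR-15, miR-16 and miR-322 was followed through 4 mouse cell populations on the dendritic cell (DC) path. The 6 mature miRNAs miR-15a-5p, miR-15b-5p, miR-15b-3p, miR-16-5p, miR-322-5p and miR-322-3p were taken by name from the deposited table, out of 1078 mature miRNAs, and their values were summed over 5 of its 715 hairpins. All cells came from C57BL/6J mice, given as 5 to 6 weeks old for the bone marrow cultures, and each population was sequenced as 1 small RNA library. Haematopoietic stem cells (HSC) were sorted bone marrow cells of the c-Kit+ Sca1+ Lineage- phenotype, with a stated purity above 95%. Immature DC (imDC) were bone marrow cells cultured for 6 days with GM-CSF at 10 ng/mL plus IL-4 at 1 ng/mL. Mature DC (maDC) had the same cytokines, were given 10 ng/mL LPS from day 4 and were taken on CD11c beads at day 8. Regulatory DC (DCreg) were maDC that had been kept at least 7 days on endothelial-like splenic stromal cells before a CD11c bead selection, and the design describes them as producers of IL-10 and NO. The maDC and DCreg populations therefore share the LPS treatment, and the imDC were not selected on beads, per the protocol.

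A miRNA hairpin is cut by Drosha and Dicer to a duplex of a 5p and a 3p strand, of which usually 1 is kept by Argonaute as the guide. Bases 2 to 8 of the guide, the seed, pair with target mRNAs, so miRNAs with the same seed share many targets. The miR-15/16 family is known as a brake on the cell cycle, through targets such as D and E cyclins, Cdk6 and Wee1, and as a repressor of the survival gene Bcl2. miR-322 is the mouse counterpart of human miR-424, which is known in monocyte differentiation, and lies beside miR-503 in a cluster on the X chromosome.

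The mature sequences show which members can share targets. They were taken from RefSeq (GRCm38.p6), which held all 6 members with sequences identical to the deposited table. The seed is in capitals, and all sequences run 5′ to 3′.
miR-15a-5p: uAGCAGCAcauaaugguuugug
miR-15b-5p: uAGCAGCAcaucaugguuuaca
miR-16-5p: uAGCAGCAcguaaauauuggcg
miR-322-5p: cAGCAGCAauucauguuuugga
miR-15b-3p: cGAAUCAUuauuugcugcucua
miR-322-3p: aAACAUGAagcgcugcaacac
miR-503-5p: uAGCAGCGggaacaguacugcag
The 4 members of the 5p arm have the seed AGCAGCA. The 3p strands have seeds of their own, and miR-503-5p, shown as the neighbour of miR-322, has the related seed AGCAGCG. Of the other miRNAs in the table, 3 have the family seed: miR-195-5p, miR-497-5p and miR-1907.

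The members come from 3 places in the genome (GRCm38). Mir15a (chr14:61632027-61632110, minus strand) lies in an intron of the non-coding gene Dleu2, 54 bases from Mir16-1 (chr14:61631880-61631972), which overlaps an annotated Dleu2 exon. Mir15b (chr3:69009772-69009835, plus strand) and Mir16-2 (chr3:69009902-69009996) lie 66 bases apart in an intron of Smc4, a condensin subunit gene. Mir322 (chrX:53054255-53054349, minus strand) has no annotated host gene and is 200 bases from Mir503 (chrX:53053984-53054054). The mature miR-16-5p is the same from either of its hairpins, so its reads cannot be given to 1 locus.

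Both strands of 2 hairpins are members, and their placement is shown because the arm ratios below rest on it. The mature arms are in capitals.
Mir322: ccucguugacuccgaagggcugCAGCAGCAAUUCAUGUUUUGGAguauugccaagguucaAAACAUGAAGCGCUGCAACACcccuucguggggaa
Mir15b: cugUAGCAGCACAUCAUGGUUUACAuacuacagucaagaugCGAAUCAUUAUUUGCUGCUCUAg

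The deposited values are called normalised counts in the file header, and their sum ranged from 2725948 in DCreg to 5251069 in imDC. They are given here in parts per 1000000 of that sum (ppm). The unique sequences deposited for each cell type, with their copies, amount to 4904897 to 6572858 reads, of which 80.2% to 84.0% were placed on a mature miRNA in a recount. No read of a member was shared with another mature sequence. With 1 library per cell type no test was possible, the spread between samples is unknown, and no difference below has a replicate check. The 95% intervals (exact, Clopper-Pearson) on recounted values cover counting error only, because each cell type has 1 library. Copies made by PCR were not marked by molecular identifiers and count as separate reads. The intervals may therefore be too narrow even for counting error.

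miR-16-5p, the most abundant member in HSC, imDC and maDC, reached 8239 ppm in HSC and 4137 in imDC, and 1691 in maDC and 1560 in DCreg. It was lowest in the 2 LPS-treated populations, which lay close to each other. Its recounted reads numbered 42725, 28926, 9912 and 6439 in the same order, or 8219, 5490, 1794 and 1637 ppm of recounted reads. By recount it ranked 19th, 30th, 31st and 28th among all mature miRNAs. miR-15b-5p, which shares a transcript with 1 copy of miR-16, stood at 5996 ppm in HSC, then 1742 in imDC, 525 in maDC and 986 in DCreg. It had the widest span of the 4 seed-sharing members by deposited value, with HSC 11.4-fold above maDC (11.1-fold by recount, interval 10.6 to 11.7). miR-15a-5p, the partner of the other miR-16 copy, reached 1824 ppm in HSC and 910 in imDC, and 498 in maDC and 617 in DCreg. Its order of libraries was that of miR-15b-5p, over a narrower range.

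miR-322-5p stood at 786 ppm in HSC, then 409 in imDC, 73.7 in maDC and 495 in DCreg. The maDC library was the low one, and the other 3 lay within a 2-fold range. imDC and DCreg traded places between the sources: DCreg was 1.21-fold above imDC by deposited value and 0.888 of it by recount (interval 0.822 to 0.959). With the median of ratios imDC had 315 ppm and DCreg 627. These 2 levels therefore have no settled order, and the size of their difference depended on the source and the scaling. miR-322-3p, the opposite strand of the same hairpin, reached 1607 ppm in HSC and 787 in imDC, and 918 in maDC and 6102 in DCreg. It was high in DCreg, where it ranked 19th by deposited value, against 51st to 67th in the other libraries, and passed every other member. The imDC and maDC levels of miR-322-3p did not differ beyond counting error by recount (ratio of maDC to imDC 0.969, interval 0.912 to 1.03). They did depend on the scaling: with the median of ratios they were 606 and 1151 ppm. miR-15b-3p, the minor strand of the miR-15b hairpin, stood at 191 ppm in HSC, then 130 in imDC, 13.6 in maDC and 8.07 in DCreg. Its last 2 values rest on 48 and 21 reads and did not differ beyond counting error, nor did HSC and imDC by recount.

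**Figure D1:**
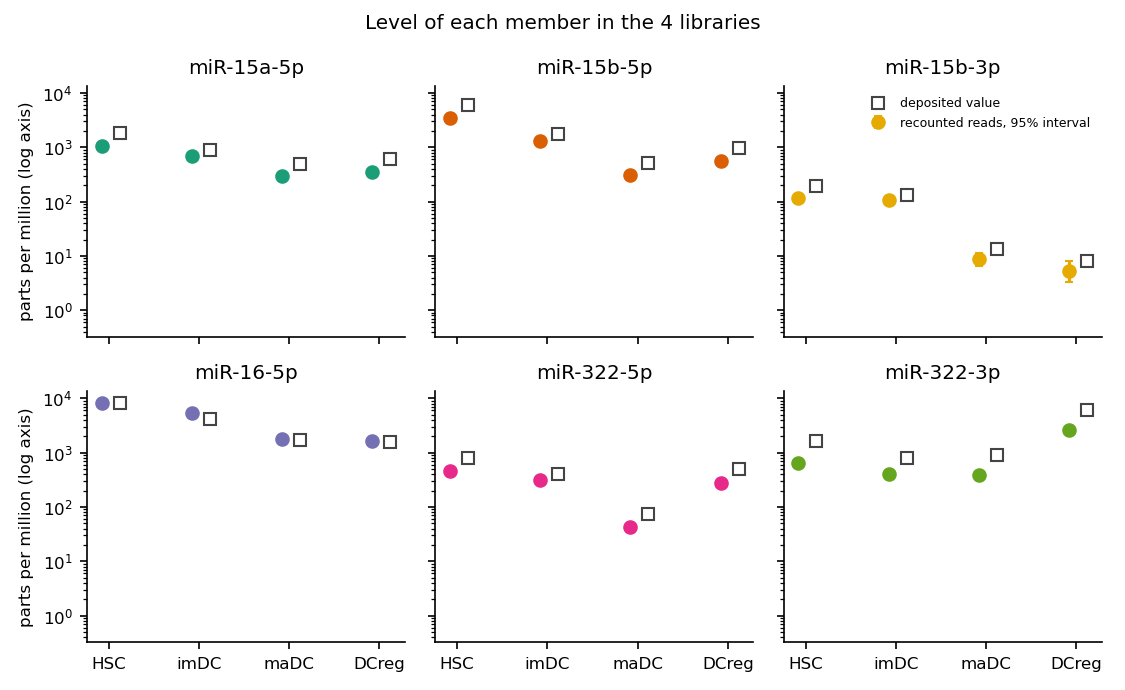
Level of each member in the 4 libraries on a log axis in parts per 1000000 (ppm); open squares are deposited values and filled points are recounted reads with 95% counting intervals. The 4 seed-sharing 5p members are highest in HSC, miR-15b-3p is lowest in DCreg (8.07 ppm deposited), and miR-322-3p is highest there (6102 ppm).

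The first step, from HSC to imDC, compares a bone marrow progenitor with cytokine-grown immature DC. A miRNA was counted as different at 2-fold or more between deposited levels (pseudocount 0.5) and 100 ppm or more in 1 of the 2 libraries. At this step 3 of the 6 members were at least 2-fold lower in imDC and 0 were higher, where 28.3% of the 187 miRNAs compared were lower and 26.2% higher. The members' median log2 ratio was -0.998, against -0.12 for all 187. miR-15b-5p was 3.44-fold lower (2.60-fold by recount, interval 2.53 to 2.68), the largest ratio of the 6. miR-322-3p was 2.04-fold lower and miR-15a-5p 2.00-fold lower. miR-16-5p at 1.99-fold and miR-322-5p at 1.92-fold fell just short of the line, so the count splits members with nearly equal ratios, and it was 5 with the median of ratios as the scaling. The recounted ratios of these 4 ran from 1.44-fold to 1.59-fold lower, and by recount only miR-15b-5p passed 2-fold, where 17.1% of miRNAs were lower and 37% higher. miR-15b-3p was 1.47-fold lower by deposited value, and its recounted ratio was 1.05-fold lower (interval 0.935 to 1.18).

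The second step compares imDC, without LPS at day 6, with maDC, which had LPS from day 4 and were bead-selected at day 8. LPS, culture time and bead selection cannot be told apart in it. Here 4 of the 6 members were at least 2-fold lower in maDC and 0 were higher, where 45% of the 160 miRNAs compared were lower and 9.38% higher. The members' median log2 ratio was -1.51, against -0.88 for all 160. miR-15b-3p was 9.52-fold lower (12.5-fold by recount, interval 9.31 to 17.2). miR-322-5p was 5.54-fold lower (7.29-fold, 6.36 to 8.38). miR-15b-5p was 3.32-fold lower (4.26-fold, 4.04 to 4.50) and miR-16-5p 2.45-fold lower (3.06-fold, 2.99 to 3.13). miR-15a-5p was 1.83-fold lower by deposited value and 2.37-fold lower by recount (2.23 to 2.51), which brings the recounted number to 5 of 6, beside 59.8% of all miRNAs lower and 1.52% higher. The scaling bore on these values. With the median of ratios the log2 ratio of miR-16-5p was -0.59 in place of -1.29, which ends its 2-fold count, and trimmed-mean scaling (M-values) gave -0.74. With the median of ratios miR-15b-5p had -1.03 in place of -1.73, miR-322-5p -1.76 in place of -2.47 and miR-15b-3p -2.54 in place of -3.24, and the number of members lower was 2, as miR-15b-3p, at 99.8 ppm in imDC on that scale, then missed the 100 ppm minimum. miR-322-3p was the exception, at 1.17-fold higher by deposited value and 0.969 by recount. Its log2 ratio of 0.22 became 0.93 with the median of ratios and 0.77 with trimmed-mean scaling. By deposited value the 2 strands of the miR-322 hairpin thus stood 5.54-fold lower and 1.17-fold higher across the same 2 libraries.

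The third step, from maDC to DCreg, compares LPS-matured DC with the DC recovered from stroma. Of the 5 members that reached 100 ppm, 2 were higher in DCreg by 2-fold or more and 0 were lower, where 20.3% of the 138 miRNAs compared were higher and 28.3% lower. Both were strands of miR-322. miR-322-3p was 6.65-fold higher (6.79-fold by recount, interval 6.48 to 7.12) and miR-322-5p 6.72-fold higher (6.47-fold, 5.62 to 7.47), so the 2 arms had nearly the same ratio. The recount also placed 2 members higher and 0 lower, where 18.3% of miRNAs were higher and 25% lower. miR-15b-5p was 1.88-fold higher (1.80-fold, 1.69 to 1.92) and miR-15a-5p 1.24-fold higher (1.19-fold, 1.11 to 1.28). miR-16-5p stood at 0.923 of its maDC level (0.912 by recount, 0.884 to 0.942). miR-15b-3p was under 100 ppm in both libraries, and its recounted ratio was 0.615 (0.349 to 1.05). The 3 steps share libraries with each other, so the maDC value enters both the second and the third.

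Across the whole span from HSC to DCreg, 4 of the 6 members were at least 2-fold lower in DCreg and 1 was higher, where 56% of 175 miRNAs were lower and 19.4% higher. miR-15b-3p was 23.6-fold lower (21.4-fold by recount, interval 13.9 to 34.8), miR-15b-5p 6.08-fold, miR-16-5p 5.28-fold and miR-15a-5p 2.96-fold lower. miR-322-5p was 1.59-fold lower. miR-322-3p was 3.80-fold higher (4.14-fold, 3.98 to 4.30). With the library total as the scaling, this places the 2 arms of miR-322 on opposite sides of their HSC level. With the median of ratios miR-322-5p was nearly level, at 644 ppm in HSC and 627 in DCreg. On that scale miR-322-3p had 1316 ppm in HSC and 7722 in DCreg. From HSC to maDC, 5 of 6 members were at least 2-fold lower and 0 higher, beside 48.9% of 180 miRNAs lower and 21.7% higher; miR-322-3p was the remaining member, at 1.75-fold lower. From imDC to DCreg, 2 members were lower, miR-15b-3p at 16.1-fold and miR-16-5p at 2.65-fold, and 1 was higher, miR-322-3p at 7.76-fold, beside 56% of 168 miRNAs lower and 16.1% higher. By recount 3 were lower, since miR-15b-5p was 1.77-fold lower by deposited value and 2.37-fold lower by recount (2.25 to 2.48). The members' median log2 ratio from imDC to DCreg was -0.69 by deposited value, against -1.25 for all 168. The scaling bore on this pair too. With the median of ratios the imDC and DCreg levels were 3184 and 1974 ppm for miR-16-5p and 1341 and 1248 for miR-15b-5p. For miR-15a-5p they were 701 and 781, so that DCreg was the higher.

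**Figure D2:**
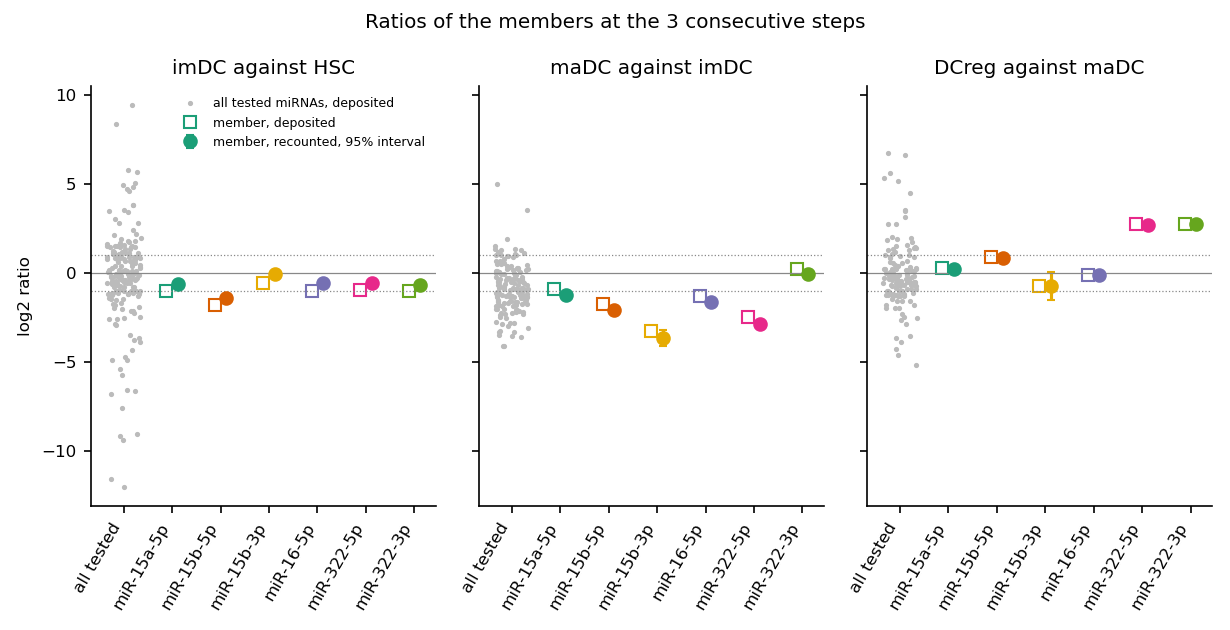
Log2 ratio of each member at the 3 consecutive steps, with open squares for deposited values, filled points for recounted reads with 95% counting intervals, and grey dots for all miRNAs compared; dotted lines mark 2-fold. At maDC against imDC the seed-sharing members sit between -0.87 and -2.47 by deposited value while miR-322-3p sits at 0.22, and at DCreg against maDC both miR-322 arms sit near 2.7.

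The mature miRNAs with seed AGCAGCA were also summed, since they can act on the same sites. Their recounted reads made up 13259 ppm in HSC and 7851 in imDC, with 2456 in maDC and 2836 in DCreg. By deposited value the sums were 17007, 7233, 2813 and 3670 ppm. The sum was 1.69-fold lower in imDC than in HSC (interval 1.67 to 1.71; 2.35-fold by deposited value). It was 3.20-fold lower in maDC than in imDC (3.14 to 3.26; 2.57-fold deposited). DCreg stood 1.15-fold above maDC (1.13 to 1.18; 1.30-fold deposited) and 4.68-fold below HSC (4.58 to 4.77). DCreg was also 2.77-fold below imDC (2.71 to 2.83), or 1.97-fold by deposited value. By these sums the seed as a whole stayed below its HSC and imDC levels in DCreg. This was so although miR-322-5p was 6.47-fold higher there than in maDC by recount. The sums rest on the library total as the scaling. With the median of ratios miR-16-5p, the largest part, stood at 6743, 3184, 2120 and 1974 ppm in HSC, imDC, maDC and DCreg. The smaller parts were nearly level or higher in DCreg than in imDC on that scale. In imDC and DCreg miR-15b-5p had 1341 and 1248 ppm, miR-15a-5p 701 and 781, and miR-322-5p 315 and 627. At DCreg against HSC the median log2 ratio of all 175 miRNAs compared was -1.43 by deposited value. At DCreg against imDC that of all 168 was -1.25.

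Within that sum, miR-16-5p held 62.0% of the reads in HSC, then 69.9% in imDC, 73.1% in maDC and 57.7% in DCreg. miR-15b-5p held 26.1%, 17.0%, 12.7% and 19.9%, and miR-15a-5p 7.94%, 8.93%, 12.1% and 12.4%. miR-322-5p held 3.43%, 4.02%, 1.76% (interval 1.55 to 2.00) and 9.87% (9.33 to 10.4). The maDC and DCreg libraries, with similar totals, thus differed in makeup, with more miR-15b-5p and miR-322-5p and less miR-16-5p in DCreg. Ligation and amplification favour some sequences, so these are shares of reads and not of molecules. miR-195-5p and miR-497-5p, encoded together on chromosome 11, gave 199 and 139 reads in HSC and at most 33 reads in any DC library. miR-1907 had no reads, although its deposited value in HSC was 6.39 ppm.

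**Figure D3:**
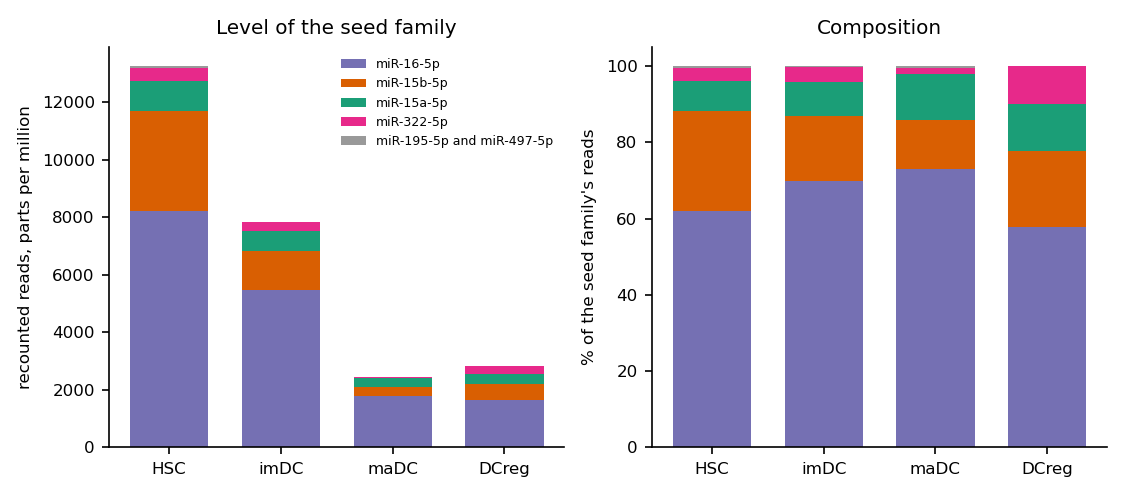
Left, recounted reads of the seed family in parts per 1000000 (ppm), stacked by miRNA; right, the same as a percentage of the family. The total goes from 13259 ppm in HSC to 2456 in maDC and 2836 in DCreg, and miR-322-5p widens from 1.76% in maDC to 9.87% in DCreg.

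The ratio of the 2 arms of a hairpin needs no scaling between libraries, since both arms come from the same library. For miR-322 the recounted reads of the 5p and 3p arm were 2365 and 3307 in HSC, 1661 and 2108 in imDC, 239 and 2141 in maDC, and 1101 and 10351 in DCreg. The 3p arm held 58.3% (interval 57.0 to 59.6) of the reads in HSC, 55.9% (54.3 to 57.5) in imDC, 90.0% (88.7 to 91.1) in maDC and 90.4% (89.8 to 90.9) in DCreg. The libraries fell into a pair with near-even arms, HSC and imDC, and a pair dominated by the 3p arm, the LPS-treated maDC and DCreg. The 5p to 3p ratio was 7.06-fold lower in maDC than in imDC (6.08 to 8.22). Between maDC and DCreg it was nearly level, with DCreg at 0.953 of maDC (0.821 to 1.11), while both arms were more than 6-fold higher. Among the 54 hairpins with at least 20 reads from each arm in both imDC and maDC, miR-322 had the lowest log2 change in arm ratio, -2.82. The median of the 54 was 0.36 with quartiles of -0.48 and 1.30, and 17 were at least 2-fold up and 8 at least 2-fold down. At DCreg against maDC the value for miR-322 was -0.07, beside a median of -0.07 over 43 hairpins.

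The miR-15b hairpin kept its 5p arm as the major strand throughout. The 3p arm held 3.19% (interval 2.94 to 3.45) of its reads in HSC, 7.55% (6.96 to 8.16) in imDC, 2.71% (2.00 to 3.57) in maDC and 0.939% (0.582 to 1.43) in DCreg. The 5p to 3p ratio was 30.3 in HSC and 12.3 in imDC, with 36.0 in maDC and 105 in DCreg. It was 2.48-fold lower in imDC than in HSC (2.20 to 2.79), then 2.94-fold higher in maDC than in imDC (2.17 to 4.05) and 2.93-fold higher in DCreg than in maDC (1.71 to 5.18). Between imDC and maDC the arm ratios of miR-15b and miR-322 therefore stood in opposite directions. The log2 change of miR-15b was 1.55 there. A rise of 2-fold or more was seen for 17 of the 54 hairpins compared (median 0.36, upper quartile 1.30), so that of miR-15b was not unusual at this step. At DCreg against maDC its log2 change was also 1.55, beside a median of -0.07 and an upper quartile of 0.88 over 43 hairpins. There 9 hairpins rose at least 2-fold, and only miR-345 (3.24) and miR-23a (1.82) had larger changes than miR-15b. The related miR-15a hairpin had 5p to 3p ratios of 23.4, 18.3, 60.6 and 107 in the order HSC, imDC, maDC and DCreg, the last on 13 reads of the 3p arm. By point value its order of libraries was the same as that of miR-15b. For miR-15b, however, HSC and maDC did not differ beyond counting error (maDC to HSC 1.19, interval 0.878 to 1.63).

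**Figure D4:**
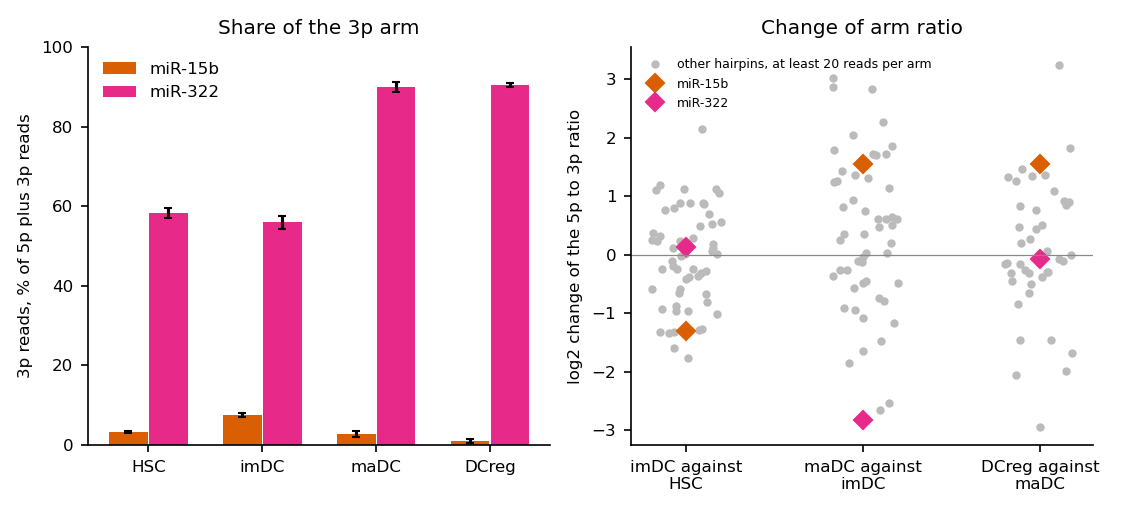
Left, share of the 3p arm in the recounted reads of miR-15b and miR-322 with 95% counting intervals; right, log2 change of the 5p to 3p ratio at each step for these hairpins and for others with at least 20 reads per arm. The 3p share of miR-322 is 58.3% and 55.9% in HSC and imDC and 90.0% and 90.4% in maDC and DCreg.

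The 3p strands of the 2 miR-16 hairpins differ in sequence and so can be told apart, unlike miR-16-5p. miR-16-1-3p had 570, 803, 123 and 80 reads in HSC, imDC, maDC and DCreg, and miR-16-2-3p had 196, 121, 33 and 2. The chromosome 14 copy gave 74.4% of these reads in HSC (interval 71.2 to 77.5), 86.9% in imDC (84.6 to 89.0), 78.8% in maDC (71.6 to 85.0) and 97.6% in DCreg (91.5 to 99.7). Most 3p reads were therefore from the Dleu2 copy in every library. How far the 3p strands stand for the shared 5p strand was not tested.

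The seed of a read depends on its first base, so 5′ ends were compared. For the other 5 members at least 98.3% of reads started at the annotated base in every library. miR-322-5p was different: 3.89% of its reads in HSC (interval 3.15 to 4.75), 5.72% in imDC (4.65 to 6.95), 10.0% in maDC (6.54 to 14.6) and 14.5% in DCreg (12.5 to 16.8) started 1 base upstream. The share in DCreg was above the intervals of HSC and imDC. Nearly all of these reads began with G, the base that precedes the mature sequence in the Mir322 hairpin. The commonest read of each start is shown with its seed in capitals, as sequenced in DNA letters.
annotated start: cAGCAGCAattcatgttttg
upstream start: gCAGCAGCaattcatgttttg
The first, of 20 bases, had 1267 copies in HSC, then 965 in imDC, 134 in maDC and 600 in DCreg, and the second, of 21 bases, had 65, 63, 16 and 118. The shifted seed CAGCAGC belongs to 0 of the mature miRNAs in the table.

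The 3′ ends varied more. Reads with the annotated start and no added base that were short at the 3′ end were counted as a share of all reads of the member. Reads of miR-322-5p stopped at least 2 bases short of the annotated end in 60.5%, 63.8%, 63.2% and 64.8% of cases in HSC, imDC, maDC and DCreg, so its usual form was 20 bases long in all 4. miR-322-3p was almost never that short, at 0.332% to 1.48%. miR-15a-5p was short in 35.4% of reads in HSC (interval 34.1 to 36.7), 31.2% in imDC (29.7 to 32.7), 2.99% in maDC (2.22 to 3.94) and 9.88% in DCreg (8.36 to 11.6). miR-16-5p gave 13.4%, 9.94%, 2.07% and 8.98% in that order. Both were shortest-ended in HSC and least so in maDC. miR-15b-5p differed from them, with 43.8% (43.1 to 44.6) in HSC, 29.7% (28.6 to 30.8) in imDC, 53.3% (50.9 to 55.7) in maDC and 59.4% (57.3 to 61.5) in DCreg. Its full 22-base form made up 31.1%, 43.8%, 22.2% and 12.8% of reads, so that imDC was the library in which this form was commonest. The 2 related miRNAs miR-15a-5p and miR-15b-5p therefore had 3′ ends that went opposite ways between imDC and maDC.

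Added bases were also counted. The full miR-16-5p followed by 1 T, which is the next base of both hairpins, made up 19.2% of its reads in HSC and 11.1% to 11.7% in the DC libraries. A single A that did not match the mature sequence ended 3.74% of miR-16-5p reads in HSC (interval 3.56 to 3.93), 4.15% in imDC (3.92 to 4.38), 7.23% in maDC (6.73 to 7.76) and 9.41% in DCreg (8.71 to 10.2). For miR-16-5p the share with A was thus higher in the LPS-treated libraries. miR-15b-5p had 2.36%, 2.01%, 3.59% and 3.97% in HSC, imDC, maDC and DCreg. The miR-322 arms did not share this order. miR-322-5p had 5.12%, 4.76%, 0.837% and 2.72%, lowest in maDC, and miR-322-3p had 6.55% to 7.47%. miR-15a-5p had 2.52%, 4.09%, 5.19% and 3.97% of reads with such an A in the same order, and its maDC and DCreg intervals overlapped.

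**Figure D5:**
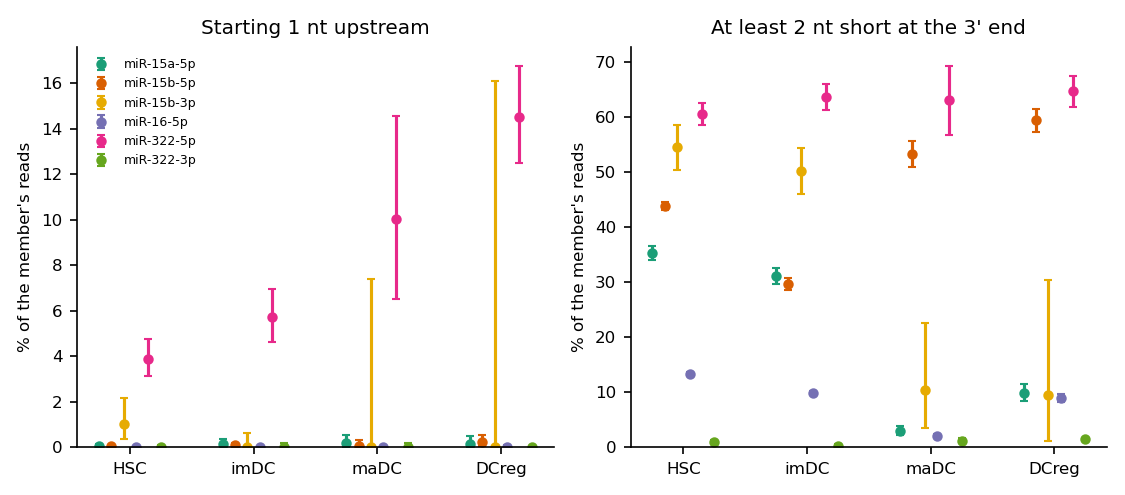
Share of each member's recounted reads that start 1 base upstream (left) or stop at least 2 bases short at the 3′ end without added bases (right), with 95% counting intervals. miR-322-5p is the member with upstream starts (3.89% in HSC to 14.5% in DCreg); the wide intervals belong to miR-15b-3p, which has 48 reads in maDC and 21 in DCreg.

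The X chromosome cluster around Mir322 also encodes miR-503, miR-351, miR-542 and the miR-450 group, listed here as 11 other mature strands. miR-503-5p, itself known as a cell cycle regulator, was the 1 strand that reached 100 ppm. It reached 4230 ppm in HSC and 1946 in imDC, and 863 in maDC and 928 in DCreg. Its maDC and DCreg levels did not differ beyond counting error (recount ratio 1.04, interval 0.977 to 1.10), where both arms of miR-322 stood over 6-fold apart. Among the weaker strands, miR-542-3p had 227, 276, 25 and 44 reads and miR-450a-5p had 102, 66, 11 and 54 in HSC, imDC, maDC and DCreg. Counting intervals of the recounted ratio lay wholly below 1 for 8 of 11 strands at maDC against imDC, and above 1 for 0. Over the 637 mature sequences with reads in either of these libraries the shares were 50.2% below and 6.44% above. At DCreg against maDC they lay above 1 for 5 and below 1 for 0, with 5 spanning 1 and 1 without reads, beside 18.2% above and 28.8% below over 593 sequences. The 5 included miR-450a-5p at 6.90-fold (3.56 to 14.6), miR-351-3p at 8.19-fold (3.41 to 23.8) and miR-542-3p at 2.47-fold (1.48 to 4.21). The others were under 2-fold, with miR-351-5p at 1.95-fold (1.20 to 3.20) and miR-450b-3p at 1.96-fold (1.38 to 2.80). At imDC against HSC 3 of 11 lay below 1 and 1 above, beside 18.8% and 34.1% over 669 sequences. These counts depend on the depth of each strand, so they describe the list and show nothing particular to the cluster. The miR-450b hairpin also had a larger 3p share in the LPS-treated libraries, 98.3% in maDC (58 reads of the 3p arm and 1 of the 5p arm) and 94.2% in DCreg (81 and 5), against 75.7% in HSC and 71.9% in imDC. The miR-351 hairpin did not follow, with a 3p share of 16.2% in maDC (interval 6.19 to 32.0, on 6 reads of the 3p arm) against 38.2% in imDC (29.8 to 47.1).

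To see which other miRNAs had like profiles, the log2 levels of the 198 miRNAs that reached 100 ppm in some library were centred and compared over the 4 libraries by Euclidean distance. With 4 points per profile this is a description of these libraries. miR-16-5p was nearest to miR-106b-5p (distance 0.16 log2 units), miR-503-5p (0.24) and miR-181a-1-3p (0.30). miR-15a-5p was nearest to miR-26a-5p (0.33), miR-503-5p (0.49) and miR-30c-5p (0.53). miR-15b-5p was nearest to miR-30c-5p (0.67), miR-30b-5p (0.72) and miR-106b-3p (0.87). miR-322-5p had miR-146a-5p as its nearest profile (0.81), then miR-30b-5p (1.32) and miR-30a-5p (1.34). miR-146a-5p read 1561, 1105, 309 and 1115 ppm in HSC, imDC, maDC and DCreg, with the same dip in maDC. The distance from miR-322-5p to its own 3p strand was 2.63, the 63rd in order.

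Markers of other cell types moved with some of these levels. The 4 erythroid miRNAs of the table (miR-144-3p, miR-144-5p, miR-451 and miR-486-5p) summed to 15231 ppm in HSC and to 1.56 to 19.4 ppm in the DC libraries, and miR-144-5p had no reads in maDC or DCreg. The 3 muscle miRNAs summed to 8676 ppm in HSC, then 40.6 in imDC, 45.6 in maDC and 259 in DCreg, with miR-133a-3p listed at 0 in maDC and DCreg. By recount the muscle sum was larger, at 22730, 52.0, 63.5 and 405 ppm in the same order of libraries. The HSC library thus held both marker groups at high levels, as well as the highest levels of the seed-sharing members, and their part in the imDC against HSC ratios was not tested. In the stromal list, which bears on DCreg taken from a stromal layer, 9 miRNAs summed to 1211, 69.9, 181 and 261 ppm in HSC, imDC, maDC and DCreg, and 5 of 9 had more than 3 reads in DCreg. By recount the order of the last pair turned, with 321 ppm in maDC and 298 in DCreg (1864 in HSC and 165 in imDC). By deposited value miR-143-3p had 155 ppm in DCreg against 40.9 in maDC, and miR-199a-3p had 79.6 and 120. miR-218-5p had no recounted reads in either, and its deposited value was 0 in DCreg and 2 in maDC. Of the endothelial pair, miR-126-3p had 1 read and miR-126-5p 2 reads in DCreg. The part of stromal or muscle-type RNA in the miR-322 values of DCreg was not tested. In bulk RNA a different share of cells and a different amount per cell cannot be told apart. The lists for the labelled blood cells were present: the blood-wide miR-142 arms summed to 9471 to 20092 ppm in all 4 libraries. The myeloid miR-223 arms summed to 4140, 3056, 963 and 727 ppm and the progenitor list to 2503, 579, 1037 and 2418 ppm in HSC, imDC, maDC and DCreg. The 3 progenitor miRNAs differed among themselves: miR-196b-5p was at 251 ppm in HSC and 2.46 to 33.7 ppm in the DC libraries. miR-10a-5p was at 2193 ppm in HSC and 2042 in DCreg, with 532 in imDC and 1018 in maDC. miR-125b-5p was at 58.0 ppm in HSC, 13.5 in imDC and 16.1 in maDC, and at 363 in DCreg. The lymphoid pair summed to 1831 to 2984 ppm, of which miR-150-5p was 914 ppm in HSC and 1.56 to 17.1 in the DC libraries.

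The deposited value was not a fixed multiple of the reads. Over miRNAs with at least 200 reads the median value per read was 1.40 in HSC and 1.33 in imDC, with 1.35 in maDC and 1.21 in DCreg. miR-15a-5p, miR-15b-5p and miR-322-5p lay close to these. miR-16-5p had 0.815, 0.751, 0.764 and 0.661, although its value is a sum over 2 hairpins that each carry about the same number (17363 and 17457 in HSC). miR-322-3p had 2.05, 1.96, 1.92 and 1.61. Levels of different members are therefore better compared by reads: in DCreg the ratio of miR-322-3p to miR-16-5p was above 1 from either source, with 10351 against 6439 reads and 6102 against 1560 ppm deposited. The cause of the unequal factors was not tested.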

How the data were processed

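The deposited table holds whole-number scores for mature miRNAs by hairpin, called normalised counts per the file headers. The normalisation, the aligner and its mismatch rule were not given in the sources used here. RNA under 30 bases was amplified for 12 cycles per the labels' protocols. Other RNA classes (ribosomal, transfer, messenger, small nuclear and nucleolar) were then removed and the rest matched to miRBase release 19, also per the labels. The deposited unique sequences carry copy numbers. Scores were summed over hairpins and scaled to the library's sum. Reads were recounted (Python 3.11.15, numpy 2.4.6, scipy 1.17.1) by an exact match of at least 16 bases to the table's mature sequences, with a 5′ end within 2 bases and at most 5 unmatched 3′ bases; ties were divided equally. The recount was tested on simulated reads that started at the annotated base or up to 2 bases downstream. Upstream starts were not part of that test.

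With 1 library per group there is no test. Ratios have exact conditional intervals. Besides the 6 members, the named miRNAs are those with the miR-16-5p seed, the opposite arms, the miR-322 cluster list, the marker lists and the 3 nearest profiles of each 5p member. Members and lists were chosen with earlier results of these data known. Other scalings, pseudocounts, filters, hairpin rules and recount rules were tried. Loci are from GENCODE annotation.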

Additional observations from a re-analysis of the deposited data

How the results depend on the processing

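The number of members at least 2-fold lower in imDC than in HSC, 3 as reported, depended on the scaling because 4 members lay close to 2-fold. It was 1 with the trimmed mean of M-values, without the 5 most abundant miRNAs, with all reads as the total and with recounted reads, and 5 with the median of ratios and with the highest hairpin value. The number lower in maDC than in imDC, 4 as reported, was 2 with the median of ratios. The other 53 alternative counts were taken as within 1.5 times of the reported ones. They include the alternatives to reported counts of 0, where a ratio has no meaning, so 53 overstates how stable the counts were. Of 18 member ratios, 16 kept their sign in all 10 alternatives. miR-322-3p at maDC against imDC ran from -0.05 to 0.93 (log2), and miR-16-5p at DCreg against maDC from -0.41 to 0.01, and neither was 2-fold as reported. The scaling moved the median log2 ratio of all miRNAs from -0.12 to between -0.20 and 0.14 at imDC against HSC, from -0.88 to between -1.12 and -0.18 at maDC against imDC, and from -0.34 to between -0.63 and -0.22 at DCreg against maDC. The numbers higher and lower over all miRNAs, 49 and 53 at the first step, were 58 and 35 with the trimmed mean and 55 and 34 with all reads. At the second step 15 and 72 became 27 and 43, or 31 and 32 with the median of ratios. At the third step 28 and 39 became 18 and 41 with all reads.

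Arm ratios kept their side of 1 and their order between imDC and maDC in every alternative run. Without unmatched 3′ bases the 5p to 3p ratio of miR-15b was 36.0, 14.8, 68.1 and 199 in HSC, imDC, maDC and DCreg, and that of miR-322 was 0.817, 0.847, 0.128 and 0.119. With deposited values it was 13.4 for miR-15b in imDC, and 0.489, 0.519, 0.0803 and 0.0812 for miR-322. With the 5′ end exactly as annotated miR-322 had 0.736 in imDC and 0.0909 in DCreg. No paired analysis was possible because each group has 1 library. Depth limits miR-15b-3p most, with 48 reads in maDC and 21 in DCreg, and miR-322-5p in maDC, with 239. A value of 0 allows up to 3 reads, or 0.543 to 0.763 ppm of recounted reads.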
